A study of Mus musculus with 30 samples.

Results

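The 29 genes described here carry glucose into the heart muscle cell, take it through glycolysis to lactate, and store it as glycogen or release it. They are 2 glucose transporters, 9 genes of hexose phosphorylation and of the phosphofructokinase step, 10 genes of lower glycolysis, 2 lactate dehydrogenase genes and 6 glycogen genes. They were taken by symbol from a list and matched to the Entrez gene IDs of the deposited tables, where all 29 were found among 24467 rows. RNA was measured by strand-specific mRNA sequencing in 30 bulk samples of mouse left ventricle, each called a heart below. Mice without a transgene (NTG, also labelled Wildtype) were compared with mice carrying the human relaxin receptor RXFP1 (hRXFP1tg, here TG), which the title of the study places in cardiomyocytes. Mice had 8 weeks of pressure overload by transverse aortic constriction (TAC), in which the aorta is tied to a narrower bore, or were operated on without it (Sham). Each genotype had 5 hearts after Sham and 10 after TAC. The promoter of the transgene, its founder line, and the age and sex of the mice are not given in the sources used here, nor is it said that every sample came from its own animal, so p-values measure the spread between these samples.

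The adult heart burns mainly fatty acids and takes up glucose through GLUT4, the insulin-responsive transporter encoded by Slc2a4. Most steps of glycolysis have a form that predominates in striated muscle and another that is found in many tissues or in fetal muscle, such as Eno3 and Eno1 for enolase or Pygm and Pygb for glycogen phosphorylase. Greater use of glucose and a return toward the fetal set of isoforms are textbook features of the pressure-overloaded heart.

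The libraries held 9231678 to 13093351 counts each, and 28 of the 29 genes were among the 13588 with enough counts for a test. Levels are counts scaled to a common library total (CPM), with TMM factors between libraries. The Sham hearts were rich in cardiomyocyte markers, with a summed level of 111495 to 126372 CPM over 10 markers in NTG and 111041 to 119259 in TG hearts, and no library was at 0 for any of them. That sum spanned 60762 to 117928 in NTG TAC and 104797 to 118248 in TG TAC hearts. The sum of 10 fibroblast markers spanned 1436 to 1815 CPM in NTG hearts after Sham and 1441 to 6528 after TAC, and 1424 to 1764 and 1396 to 2157 in TG hearts. The sum of 10 macrophage markers spanned 290.5 to 385 and 249 to 1026 in NTG and 325 to 473 and 283 to 499 in TG hearts. NTG Sham replicate 5 stood apart in 9 lymphocyte markers, with a sum of 269 CPM against at most 26.8 in every other library, and without it the calls of Pfkfb1 and Pygm given below ended while the other 6 held. Mouse Rxfp1 had at most 14 counts in any library, and these counts do not check the human transgene. A number in the deposited sample names was 100 or more for all 5 TG Sham hearts, for NTG Sham replicates 1 to 4, for NTG TAC replicates 1 to 3 and for TG TAC replicate 1. Its meaning is not given, and in TG hearts it can hardly be told apart from TAC, since it divides Sham and TAC libraries but for 1.

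In NTG Sham hearts the levels per kilobase of the principal transcript covered more than 4 orders of magnitude, and the muscle form led most steps. Aldoa, the aldolase of muscle, was highest at 2555 ± 96.5 CPM per kb (SD, n = 5). Ldhb, the heart-type subunit of lactate dehydrogenase, followed at 1334 ± 118.38, then Eno3, the muscle enolase, at 1011 ± 60.9, Pgam2, the muscle phosphoglycerate mutase, at 929 ± 40.6, and Pygm, the muscle glycogen phosphorylase, at 832 ± 28.2. Eno3 and Pgam2 lay close together and changed places when the length of all exons was used instead. Gapdh, Pkm and Tpi1 of lower glycolysis lay close together, at 565 ± 40.3, 563 ± 14.986 and 512 ± 20.5, and Gapdh moved from place 6 to place 11 with the length of all exons.

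Nearly all transporter RNA of the pair came from the GLUT4 gene. Slc2a1, which encodes the basal transporter GLUT1, had 10.8 ± 1.05 CPM per kb and Slc2a4 308 ± 17.6, so Slc2a1 made up 3.39% of the pair per length. Of phosphofructokinase, the step that commits glucose to glycolysis, the muscle subunit Pfkm had 472 ± 20.4, the liver-type Pfkl 41.9 ± 1.83 and the platelet-type Pfkp 16.2 ± 1.13 CPM per kb. Hexokinase was shared by Hk1 and Hk2, at 71.7 ± 4.78 and 60.1 ± 4.79. At the low end stood Pfkfb3, one of the enzymes that set fructose 2,6-bisphosphate, an activator of phosphofructokinase, at 3.15 ± 1.2, and Aldoc, the brain-type aldolase, at 0.0737 ± 0.0268. Aldoc was the 1 gene too low to test.

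**Figure D1:**
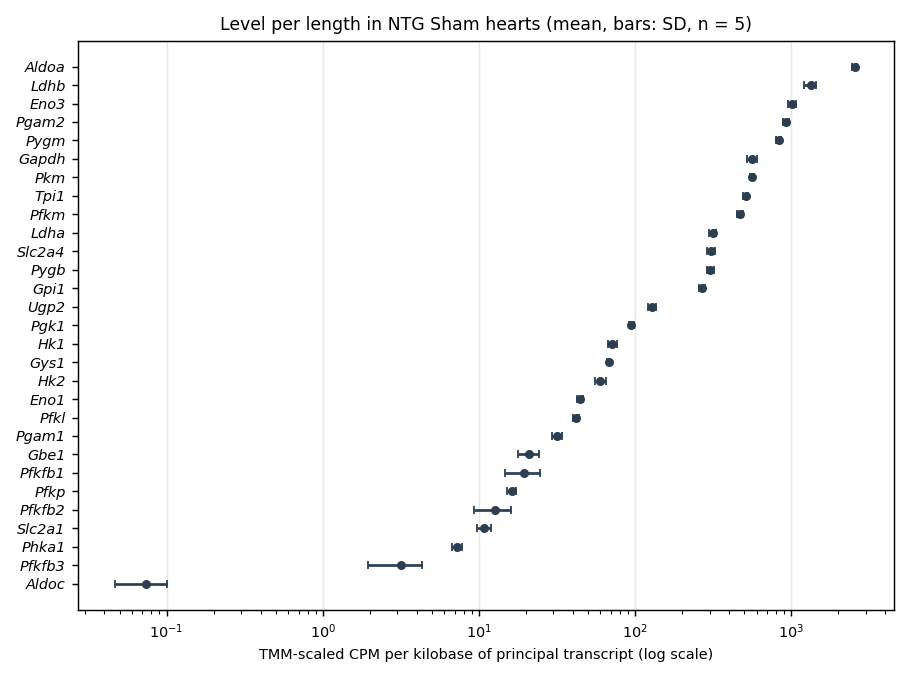
Level of each of the 29 genes in NTG Sham hearts, in TMM-scaled CPM per kilobase of the principal transcript on a log axis, with points at the mean and bars for the SD of 5 hearts. Aldoa is highest and Aldoc lowest, and the muscle forms Eno3, Pgam2, Pygm and Pfkm lie far above Eno1, Pgam1 and Pfkp, with Pygb between.

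With pressure overload of NTG hearts, single genes at the phosphofructokinase, enolase, lactate dehydrogenase and glycogen steps differed in the fit of all 4 groups. Of the 28 genes tested, 8 (28.6%) were called at an adjusted p under 0.05, 3 higher and 5 lower, where 17.6% of all tested genes were called, 9.46% higher and 8.13% lower. Higher were Pfkp, Eno1 and Ugp2, and lower were Pfkm, Pfkfb1, Eno3, Ldhb and Pygm. In a fit on the NTG groups alone, described below, 0 of the 28 were called. For 0 of the 28 did the groups lie fully apart, against 1.68% of all tested genes. The other 20 were not called, and 16 of the 28 had an unadjusted p under 0.05, against 32.5% of all tested genes. The median log2 fold change was 0.08 over the 28 genes and 0.00 over all tested genes. In bulk tissue, fewer cells of a type and less RNA per cell cannot be told apart, and the marker sums given above moved with these genes, with 6 of 10 cardiomyocyte markers called lower and 5 of 10 fibroblast and 5 of 10 macrophage markers called higher. Of 8 smooth muscle and pericyte markers 3 were called lower, with a sum of 1699 to 1884 CPM after Sham and 1174 to 1755 after TAC. Of 7 tested lymphocyte markers 5 were called lower, where NTG Sham replicate 5 held 269 CPM and the other 4 Sham hearts 7.02 to 18.7. Of 4 tested skeletal muscle markers 1 was called lower, and of the endothelial, adipocyte, erythroid and atrial markers tested, 0 were called. The part of these markers in the results was not tested.

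Among the transporters, the GLUT1 gene Slc2a1 spanned from 31.9 to 87.994 (median 42.2) CPM in NTG TAC hearts, and it had 32.6, 37.4, 33.7, 40.3 and 32.4 in the 5 NTG Sham hearts. Its log2 fold change was 0.39 ± 0.16 (SE) with an adjusted p of 0.0824 by edgeR's quasi-likelihood test, so it was not called, and TAC replicate 2 lay far above every other heart. The GLUT4 gene Slc2a4 had 773.46, 801, 802, 805 and 700.5 CPM in NTG Sham hearts and ran from 394 to 797 (median 685) in NTG TAC hearts, with a log2 fold change of -0.26 ± 0.11 and an adjusted p of 0.0976. The lowest Slc2a4 values were 394, 496 and 509 CPM in TAC replicates 10, 3 and 2, and the groups overlapped.

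The phosphofructokinase step held the widest changes. Pfkp had 65.8, 74.4, 61.4, 67.6 and 67.3 CPM in NTG Sham hearts and ran from 73.7 to 327 (median 105.96) in NTG TAC hearts. Replicates 2, 3 and 10 reached 327, 227 and 196 CPM, replicates 8 and 5 lay next, and 9 of 10 TAC hearts lay above every Sham heart. The log2 fold change was 1.08 ± 0.28 (SE), or 2.11-fold, with an adjusted p of 0.0109 by edgeR. Pfkm had 1349, 1400.3, 1365, 1411 and 1263 CPM in NTG Sham and ran from 715 to 1339 (median 1155) in NTG TAC hearts, with replicate 10 lowest and replicates 2 and 3 next. It fell by 0.28 ± 0.09 on the log2 scale, with an adjusted p of 0.032 by edgeR. Leaving out any 1 of NTG Sham replicates 1 to 4 or of NTG TAC replicates 2 and 3 ended the Pfkm call, with an adjusted p of at most 0.074. Pfkl had 161, 161, 146, 161 and 154 CPM after Sham and ran from 142 to 277 (median 168) after TAC. It overlapped between the groups and was not called, with an adjusted p of 0.131 by edgeR.

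Pfkfb1, known in liver and muscle as a bifunctional enzyme that makes and removes fructose 2,6-bisphosphate, had 24.7, 30.1, 40.2, 45.8 and 29.5 CPM in NTG Sham hearts. In NTG TAC hearts it ran from 3.27 to 35.5 (median 16.2). Replicates 2, 3 and 10 held 3.27, 4.19 and 4.64 CPM, while replicate 1 lay within the Sham range at 35.5. The log2 fold change was -1.06 ± 0.36 (SE), or 0.479-fold, with an adjusted p of 0.0409 by edgeR. The call ended when any 1 of NTG Sham replicates 2 to 5 or of NTG TAC replicates 2, 3, 5, 8 and 10 was left out, with an adjusted p of up to 0.112. Pfkfb2, the heart isoform of this enzyme, had 75.3, 66.0, 41.3, 41.9 and 56.0 CPM after Sham and ran from 43.1 to 65.8 (median 52.0) after TAC, all within the Sham range. Pfkfb3, an isoform with high kinase activity, had 14.6 ± 5.57 (SD, n = 5) and 17.7 ± 4.22 (SD, n = 10), and neither gene was called. Hk1 and Hk2, the first enzymes of glucose use, had 276 ± 18.4 (SD, n = 5) and 331 ± 26.4 (SD, n = 5) CPM after Sham and 333 ± 65.4 (SD, n = 10) and 338 ± 59.1 (SD, n = 10) after TAC. The adjusted p was 0.0525 for Hk1 and 0.84 for Hk2 by edgeR, and Gpi1, the isomerase between hexokinase and phosphofructokinase, was not called either.

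In lower glycolysis Eno1 rose and Eno3 fell. Eno1, the enolase of most tissues, had 84.3, 87.6, 93.6, 94.1 and 91.7 CPM in NTG Sham hearts and ran from 86.5 to 157 (median 109) in NTG TAC hearts, with replicates 10, 2 and 3 highest at 157, 154 and 121. Its log2 fold change was 0.33 ± 0.10 (SE), or 1.26-fold, with an adjusted p of 0.0252 by edgeR, and the call ended without NTG Sham replicate 1 or 2, with an adjusted p of up to 0.0665. Eno3 had 1540.1, 1537, 1676, 1686 and 1469 CPM in NTG Sham hearts and ran from 706 to 1493 (median 1381) in NTG TAC hearts, where replicates 10, 2 and 3 were lowest at 706, 968 and 1007. Of the TAC hearts, 9 of 10 lay below every Sham heart. Eno3 changed by -0.34 ± 0.11 on the log2 scale, with an adjusted p of 0.0294 by edgeR, and was no longer called without 1 of replicates 3 and 4 of NTG Sham or 2 and 3 of NTG TAC, with an adjusted p of up to 0.0749. A near-identical copy, Eno1b, takes a share of the reads of Eno1, so the level of Eno1 alone is uncertain. Counted on its own row, Eno1b had a log2 fold change of 0.31 ± 0.10 (SE) and an adjusted p of 0.035 by edgeR.

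Aldoa, Tpi1 and Pkm of the shared trunk were not called. Aldoa had 3861 ± 146 (SD, n = 5) CPM after Sham and 3941 ± 197 (SD, n = 10) after TAC in NTG hearts, Tpi1, the triose phosphate isomerase gene, 823 ± 32.9 (SD, n = 5) and 864 ± 49.0 (SD, n = 10), and Pkm, the pyruvate kinase gene of muscle, 1369.7 ± 36.4 (SD, n = 5) and 1293 ± 58.8 (SD, n = 10). Their log2 fold changes were 0.03 ± 0.05, 0.07 ± 0.05 and -0.08 ± 0.04 (SE). Counts per gene do not separate the M1 and M2 forms of Pkm. Gapdh, Pgk1, Pgam1 and Pgam2, the genes of the steps from glyceraldehyde 3-phosphate to 2-phosphoglycerate, were not called, with adjusted p-values of 0.264, 0.0922, 0.0949 and 0.608 by edgeR. Pgam1 had the widest range of these, from 43.3 to 128 (median 67.7) CPM after TAC, with replicates 2, 10 and 3 highest. Gapdh, Pgk1, Pgam1, Tpi1, Ldha, Aldoa and Pkm have processed copies in the genome, so a share of their reads could have been placed elsewhere.

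Of the lactate dehydrogenase subunits, the heart form Ldhb had 1677, 1698, 1879, 1908 and 1534 CPM in NTG Sham hearts and ran from 699 to 1720.4 (median 1367) in NTG TAC hearts. Replicates 10, 2 and 3 were lowest at 699, 970.2 and 1008, and replicates 1 and 4 lay among the Sham hearts. Its log2 fold change was -0.43 ± 0.13 (SE), or 0.741-fold, with an adjusted p of 0.0185 by edgeR. The call ended without NTG Sham replicate 4 alone, with an adjusted p of 0.0548. Ldha, the subunit that predominates in skeletal muscle and favours lactate formation, had 555 ± 26.9 (SD, n = 5) CPM after Sham and 613 ± 96.6 (SD, n = 10) after TAC and was not called, with an adjusted p of 0.199 by edgeR.

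On the glycogen side, Ugp2, which makes the UDP-glucose that glycogen is built from, had 376, 340.4, 329, 354 and 330.4 CPM in NTG Sham and ran from 353 to 746 (median 448) in NTG TAC hearts. Replicate 2 stood far above the rest, replicates 8 and 3 followed at 521 and 498, and 9 of the 10 TAC hearts lay above every Sham heart. The log2 fold change was 0.44 ± 0.12 (SE), or 1.36-fold, with an adjusted p of 0.0108 by edgeR. Ugp2 and Pfkp were the 2 genes that kept this call whichever 1 of the 30 libraries was left out. Fitted on the NTG groups alone, both calls ended, with adjusted p-values of 0.0831 and 0.101 by edgeR. Pygm, which releases glucose 1-phosphate from glycogen in muscle, had 2291, 2424, 2449, 2473 and 2319 CPM in NTG Sham and ran from 1241 to 2472 (median 2019) in NTG TAC hearts, again with replicates 10, 2 and 3 lowest and replicate 1 at the Sham level. It changed by -0.29 ± 0.10 on the log2 scale, with an adjusted p of 0.0446 by edgeR, and the call ended without any 1 of 13 libraries, all 5 NTG Sham hearts among them, NTG TAC replicates 2, 3, 5 and 8, TG Sham replicates 2, 4 and 5 and TG TAC replicate 8. The highest adjusted p then was 0.0938. Pygb, the phosphorylase first described in brain, had 1154, 1248, 1207, 1225 and 1102 CPM after Sham and ran from 1110.1 to 1539.6 (median 1234) after TAC, with replicate 9 highest. Pygb was not called, and neither were Gys1, the glycogen synthase of muscle, Gbe1, the branching enzyme, and Phka1, a regulatory subunit of phosphorylase kinase in muscle, with adjusted p-values of 0.374, 0.992, 0.109 and 0.135 by edgeR.

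**Figure D2:**
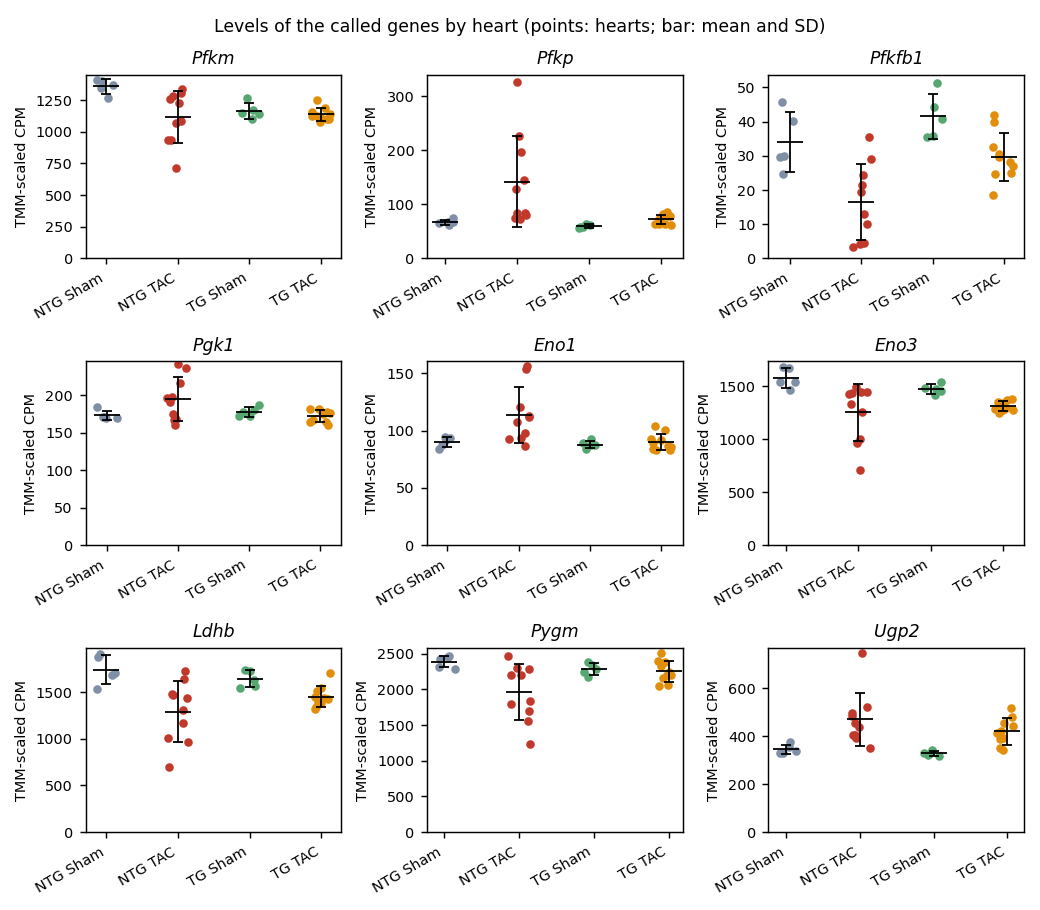
TMM-scaled CPM of the 9 genes called in at least 1 comparison, with 1 point per heart in 4 groups and bars for the mean and SD. NTG TAC points spread widely, with Pfkp up to 327 CPM and Pfkfb1 down to 3.27 CPM, while TG TAC points stay close together.

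The same few hearts were the most changed throughout. Replicates 2 and 3 of NTG TAC were among the 3 most changed TAC hearts for all 8 called genes, and replicate 10 for 7 of 8, the exception being Ugp2, where replicate 8 took its place. In these hearts the cardiomyocyte marker sum was 87158, 90233 and 60762 CPM in the order 2, 3 and 10, and the fibroblast sum 3637, 4484 and 6528. Replicate 1, which lay nearest to the Sham mean for Ugp2, Pfkm, Pfkfb1, Ldhb and Pygm, had sums of 117928 and 1441. Replicates 1, 2 and 3 are the NTG TAC libraries with a name number of 100 or more, so these 3 held both the mildest heart and 2 of the most changed. The coefficient of variation had a median of 19.0% over the 28 genes in NTG TAC hearts, against 5.72% in NTG Sham, 5.89% in TG Sham and 7.28% in TG TAC hearts, and it was higher in NTG TAC than in TG TAC hearts for 25 of 28 genes. The model shares 1 spread per gene over all 4 groups. Fitted on the NTG groups alone, 0 of 28 genes were called, with adjusted p-values of 0.0831 to 0.182 for the 8 genes by edgeR, and 218 genes were called in all in place of 2390. With 1 surrogate variable in the model, 0 of 28 were called as well, and 316 of all genes. That variable was -0.64, -0.43, -0.38 and -0.19 in NTG TAC replicates 10, 2, 3 and 8 and at least -0.112 in every other library. It thus followed the most changed hearts, so this fit also takes out change that they carry and cannot decide whether the calls hold. With the name number as a term, 8 were higher and 1 lower, while 1723 of all genes were called in place of 2390. Pfkp, Eno1, Ugp2 and Eno3 kept their calls then, with log2 fold changes of 1.26, 0.36, 0.49 and -0.38. The calls of Pfkm, Ldhb, Pygm and Pfkfb1 ended, with adjusted p-values of 0.0758, 0.061, 0.101 and 0.0987 at log2 fold changes of -0.28, -0.40, -0.27 and -1.02, and Slc2a1, Hk1, Pfkl, Phka1 and Gbe1 became calls, Slc2a1 at 0.57 with an adjusted p of 0.0111.

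**Figure D3:**
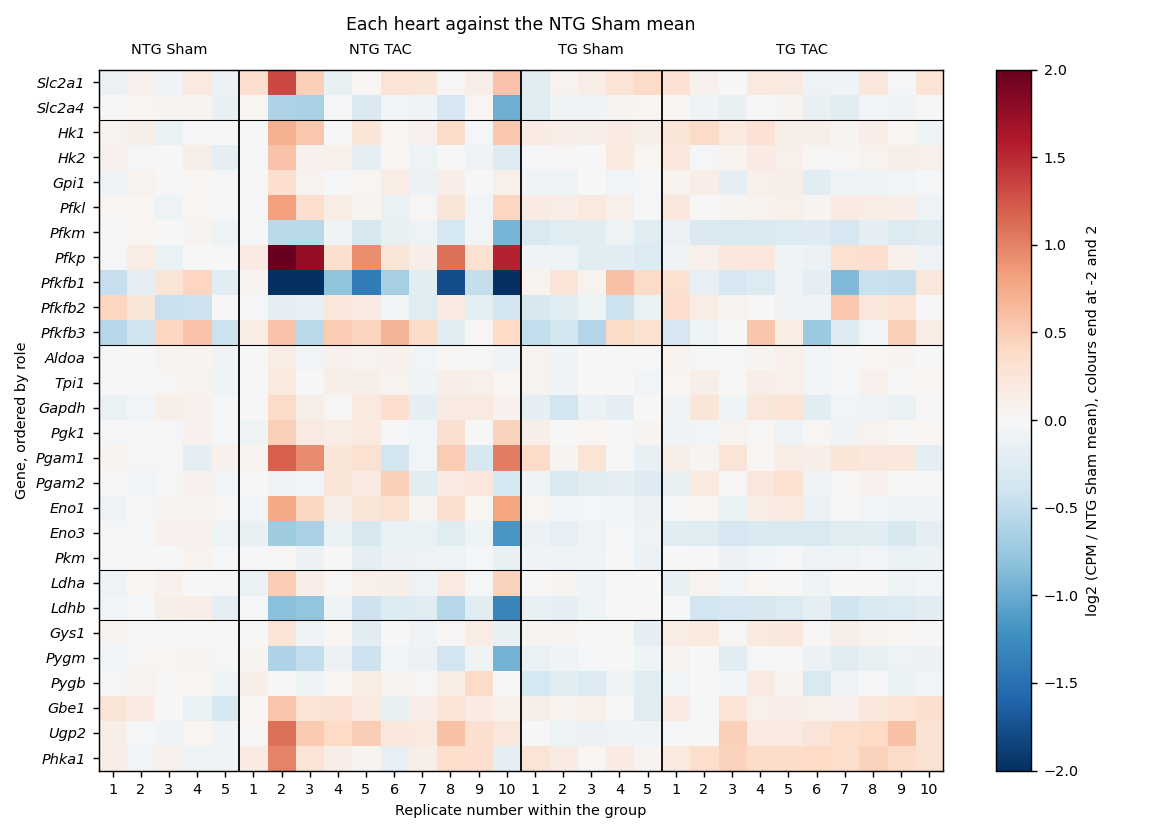
Log2 ratio of each heart to the NTG Sham mean for 28 genes (rows, by role) and 30 hearts (columns, by group and replicate), with red above and blue below the NTG Sham mean. NTG TAC replicates 2, 3 and 10 are red for Pfkp, Pgam1 and Eno1 and blue for Slc2a4, Pfkm, Pfkfb1, Eno3, Ldhb and Pygm, and no TG TAC heart shows that pattern at that strength.

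In TG hearts, TAC against Sham called 0 of the 28 genes by edgeR, where 1.43% of all tested genes were called, 0.898% higher and 0.53% lower. At an unadjusted p under 0.05 there were 5, which were Pfkfb2, Gapdh, Pgam2, Pygb and Ugp2, all with higher values after TAC. Of all tested genes 14.5% had such a p, so the share of the list was near that of all genes. Pfkfb2 had 44.999, 47.5, 52.1, 41.8 and 50.9 CPM in TG Sham hearts and ran from 53.5 to 81.4 (median 60.3) in TG TAC hearts, so every TAC heart lay above every Sham heart. Its log2 fold change was 0.40 ± 0.12 (SE) with an adjusted p of 0.0898 by edgeR. Eno3 had 1453, 1415, 1475, 1543 and 1480.1 CPM in TG Sham and ran from 1253 to 1385 (median 1315) in TG TAC hearts, so every TAC heart lay below every Sham heart, and its log2 fold change was -0.16 ± 0.11 with an adjusted p of 0.514. The groups did not overlap for these 2 of 28 genes, and for 1.66% of all tested genes. Ugp2 had 343, 323, 318, 331 and 328 CPM after Sham and ran from 342 to 517 (median 417) after TAC, with replicate 1 lowest and inside the Sham range.

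The calls of this comparison changed with the hearts in the fit. Fitted on the TG groups alone, where the wide NTG TAC group did not enter, edgeR called 8 of 28 genes. Over all genes that fit called 954 in place of 194, so calls grew across the whole table. Higher were Pfkfb2, Phka1, Ugp2, Pgam2, Pfkp and Pygb, with adjusted p-values of 0.00873, 0.00782, 0.00794, 0.00862, 0.0276 and 0.0417. Lower were Eno3 and Ldhb, at 0.0145 and 0.0398. The log2 fold changes in that fit were 0.40 for Pfkfb2, 0.36 for Ugp2, 0.28 for Pgam2, 0.27 for Pfkp, 0.23 for Phka1, 0.19 for Pygb, -0.16 for Eno3 and -0.18 for Ldhb. DESeq2 called 1 gene, Pfkfb2, with an adjusted p of 0.0407, and limma voom with quality weights called 5, namely Pfkfb2, Pgam2, Phka1, Pygb and Ugp2. Over all genes DESeq2 called 380 and limma voom 1305. TG TAC replicate 1, the TG TAC library with a name number of 100 or more, lay nearest to the Sham hearts for Ldhb, Ugp2 and Pfkfb1, at 1700.3, 342 and 41.9 CPM. With the name number as a term 0 of 28 were called, and at log2 fold changes of 0.40 for Pfkfb2 and 0.45 for Ugp2 the adjusted p-values were 0.293 and 0.223. Over all genes 15 were called in that fit. No comparison within numbers could be made, because 1 TAC library shares the Sham side.

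The genes that fell or rose in NTG hearts had these values in TG hearts. Pfkp had 63.8, 62.4, 58.0, 58.4 and 55.7 CPM after Sham and ran from 61.9 to 85.2 (median 71.990) after TAC. Pfkfb1 had 35.9, 40.8, 35.6, 51.4 and 44.2 after Sham and ran from 18.5 to 41.9 (median 28.9) after TAC, and its lowest heart lay above 5 of the 10 NTG TAC hearts. Pfkm, at 1099, 1143, 1169, 1266 and 1151 after Sham, ran from 1079.7 to 1248 (median 1122) after TAC. The 2 groups of TG hearts overlapped for all 3 genes, with log2 fold changes of 0.27 ± 0.27, -0.48 ± 0.35 and -0.04 ± 0.09 (SE). Eno1 had 92.4, 87.0, 88.9, 87.2 and 83.5 CPM after Sham and ran from 82.7 to 103.59 (median 87.9) after TAC. Ldhb had 1569, 1541, 1633, 1739 and 1728 after Sham and ran from 1322 to 1700.3 (median 1430.2) after TAC, and Pygm had 2177, 2285, 2337, 2383 and 2251 and ran from 2054 to 2513 (median 2219.8). These groups overlapped as well, and the log2 fold changes were 0.04 ± 0.10, -0.18 ± 0.13 and -0.02 ± 0.10. The transporter gene Slc2a1 stood at 39.0 ± 6.01 (SD, n = 5) CPM after Sham and 38.0 ± 3.85 (SD, n = 10) after TAC, and Slc2a4 at 747 ± 59.6 (SD, n = 5) and 745 ± 45.6 (SD, n = 10).

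In TG Sham against NTG Sham hearts 0 of 28 genes were called by edgeR, where 0.729% of all tested genes were called, 0.596% higher and 0.132% lower. Of the 28, 2, Pfkm and Pygb, had an unadjusted p under 0.05. Of all tested genes 7.27% did, so the share of the list was near that of all genes. Pygb had 929, 1009, 984, 1102 and 1007 CPM in TG Sham hearts against 1154, 1248, 1207, 1225 and 1102 in NTG Sham hearts, with a log2 fold change of -0.24 ± 0.08 (SE) and an adjusted p of 0.257. No TG Sham heart lay above the lowest NTG Sham heart. Pfkm had 1099, 1143, 1169, 1266 and 1151 CPM in TG Sham hearts, and only replicate 4 reached the lowest NTG Sham heart. Its log2 fold change was -0.22 ± 0.11 with an adjusted p of 0.681. The groups also did not overlap for Hk1, higher in TG, and Pgam2, lower in TG, which makes 3 of 28 genes with Pygb, against 3.57% of all tested genes. Fitted on the Sham groups alone, edgeR called Pygb and Pfkm lower in TG, with adjusted p-values of 0.0307 and 0.0363, limma voom called Pygb, and DESeq2 called 0. Over all genes these 3 fits called 247, 248 and 140, in place of 99.

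After TAC, 3 of the 28 genes (10.7%) were lower in TG than in NTG hearts and 0 were higher by edgeR, where 11.4% of all tested genes were called, 6.86% lower and 4.57% higher, so the share of the list was near that of all genes. At an unadjusted p under 0.05 there were 12 of the 28, against 27.8% of all tested genes. Pfkp ran from 61.9 to 85.2 (median 71.990) CPM in TG TAC hearts, and the highest of them lay below 5 of the 10 NTG TAC hearts, with a log2 fold change of -0.98 ± 0.22 (SE), or 0.507-fold, and an adjusted p of 0.0064. Eno1 ran from 82.7 to 103.59 (median 87.9) in TG TAC hearts, with a log2 fold change of -0.33 ± 0.08 and an adjusted p of 0.0109. In these groups the fibroblast marker sums given above moved too, with 4 of 10 markers lower and 1 of 10 cardiomyocyte markers higher in TG hearts, and their part was not tested. Both calls held whichever library was left out and in the fit on the TAC groups alone. With the surrogate variable described above they were lost, with adjusted p-values of 0.102 and 0.19 by edgeR. That variable followed the most changed NTG TAC hearts, so this fit cannot decide whether the calls hold. Pgk1, the phosphoglycerate kinase gene, ran from 161 to 182 (median 176) CPM in TG TAC and from 161 to 241 (median 194) in NTG TAC hearts. Its log2 fold change was -0.18 ± 0.06 with an adjusted p of 0.0465, and the call ended without any 1 of 17 of the 30 libraries, which were NTG Sham replicate 4, NTG TAC replicates 2, 3, 5, 8 and 10, TG Sham replicates 1, 4 and 5 and all TG TAC hearts but replicates 3 and 8. The highest adjusted p then was 0.108, and the call also ended under 7 of 11 other settings of the processing.

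Both TAC comparisons share groups with the comparisons between genotypes, so their values are given side by side and not counted as separate evidence. For Pfkp the TAC effect was 1.08 ± 0.28 in NTG and 0.27 ± 0.27 in TG hearts (log2 fold change ± SE). Eno1 had effects of 0.33 ± 0.10 and 0.04 ± 0.10, Ldhb of -0.43 ± 0.13 and -0.18 ± 0.13, and Pfkfb1 of -1.06 ± 0.36 and -0.48 ± 0.35. For Ugp2 it was 0.44 ± 0.12 and 0.36 ± 0.11, and for Pfkfb2 -0.06 ± 0.12 and 0.40 ± 0.12. Tested as an interaction, 0 of the 28 genes and 0% of all tested genes differed between genotypes in their TAC effect by edgeR. At an unadjusted p under 0.05 there were 4 of the 28, Pfkp, Pfkfb2, Pgk1 and Eno1, each with an adjusted p of 0.614. Of all tested genes 8.12% had such an unadjusted p. DESeq2 called 5 genes for the interaction over the whole table, none of the 28, limma on the deposited CPM called 1, also none of the 28, and limma voom called 0.

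**Figure D4:**
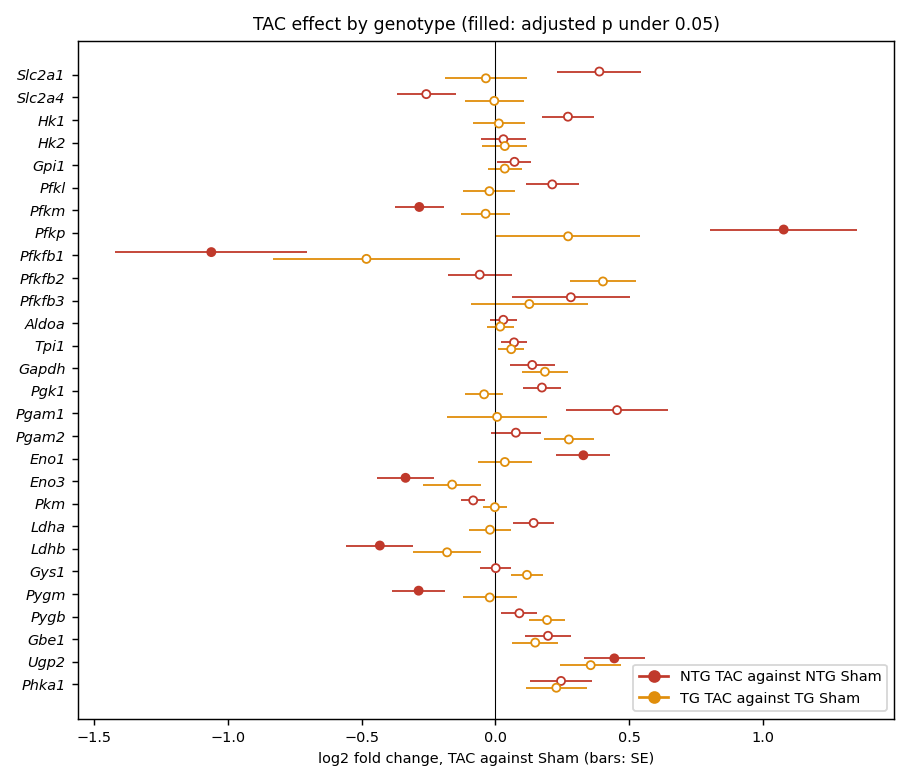
Log2 fold change of TAC against Sham with bars for the SE, for 28 genes by role, in NTG (red) and TG (orange) hearts, with filled points for an adjusted p under 0.05. The 8 filled points are all NTG, Pfkp lies farthest right at 1.08 and Pfkfb1 farthest left at -1.06, and the difference between genotypes passed no threshold for any gene.

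The ratio of isoforms within a heart needs no library scaling, and 11 such pairs were compared in 4 comparisons by permutation tests of the mean log2 count ratio, with p-values adjusted over the 44 tests. In NTG TAC against NTG Sham hearts 4 pairs passed, each toward the form that is minor in the Sham heart. Pfkp/Pfkm had log2 ratios of -4.36, -4.23, -4.47, -4.38 and -4.23 in NTG Sham hearts and ran from -4.16 to -1.52 (median -3.50) in NTG TAC hearts, so every TAC heart lay above every Sham heart. The difference of the means was 1.19, with means of -4.33 ± 0.10 in NTG Sham and -3.15 ± 1.02 in NTG TAC hearts (SD), an exact p of 0.000666, the smallest these groups can give, and an adjusted p of 0.0111. Per length, Pfkp went from 3.33% to 7.27% of the pair.

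Pygb/Pygm had log2 ratios of -0.99, -0.96, -1.02, -1.01 and -1.07 in NTG Sham hearts and ran from -0.93 to -0.07 (median -0.59) in NTG TAC hearts, again without overlap. The difference was 0.40 with the same exact p of 0.000666 and adjusted p of 0.0111, and Pygb went from 26.7% to 32.5% of the pair per length. This shift held while the level of Pygb itself was not called. Eno1/Eno3 lay between -4.19 and -4.00 in NTG Sham hearts and ran from -4.04 to -2.17 (median -3.63) in NTG TAC hearts, with a difference of 0.67 and an adjusted exact p of 0.0147. With the counts of Eno1b added to Eno1, a choice made after the data were seen, the difference was 0.66 with an adjusted exact p of 0.0147. Slc2a1/Slc2a4 lay between -4.57 and -4.32 in NTG Sham hearts and ran from -4.57 to -2.53 (median -4.13) in NTG TAC hearts, with a difference of 0.62 and an adjusted exact p of 0.0352. It lost its call when any 1 of the 5 NTG Sham hearts or of NTG TAC replicates 2, 5 and 10 was left out.

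Ldha/Ldhb, at -1.64 ± 0.11 in NTG Sham and -1.04 ± 0.60 in NTG TAC hearts, just missed the threshold, with an adjusted exact p of 0.0541. Pfkl/Pfkm and Pfkfb1/Pfkfb2 had adjusted exact p-values of 0.0611 and 0.074. Hk1/Hk2, Pfkfb3/Pfkfb2, Pgam1/Pgam2 and Aldoc/Aldoa did not pass either, with 0.147, 0.462, 0.508 and 0.71. Among the libraries with a name number of 100 or more, 3 NTG TAC against 4 NTG Sham, the differences were 1.79 for Pfkp/Pfkm, 1.13 for Slc2a1/Slc2a4, 0.91 for Eno1/Eno3 and 0.35 for Pygb/Pygm, and none could pass at that size, with adjusted exact p-values of 0.155. The numbers under 100 hold 1 NTG Sham heart and give no such value. Tested as a difference of medians, 0 of the 4 pairs passed, with adjusted exact p-values of 0.0549 for 3 of them and 0.138 for Slc2a1/Slc2a4.

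In TG hearts 3 pairs passed with TAC, and whether their shifts differed from those of NTG hearts was not tested. Eno1/Eno3 had log2 ratios of -3.97, -4.02, -4.05, -4.15 and -4.15 in TG Sham hearts and ran from -4.01 to -3.62 (median -3.92) in TG TAC hearts, a difference of 0.19 with an adjusted exact p of 0.0147. Pygb/Pygm differed by 0.21, at -1.19 ± 0.05 in TG Sham and -0.97 ± 0.13 in TG TAC hearts, with an adjusted exact p of 0.0335, a call that ended without any 1 of TG Sham replicates 1, 2, 3 and 5. Pfkfb1/Pfkfb2 had log2 ratios of -0.33, -0.22, -0.55, 0.30 and -0.20 after Sham and ran from -2.14 to -0.50 (median -1.01) after TAC, a difference of -0.90 toward the heart isoform Pfkfb2, with an adjusted exact p of 0.0147. Pfkp/Pfkm had an adjusted exact p of 0.0541 and was not called. Tested as a difference of medians, 0 of these 3 pairs passed, with adjusted exact p-values of 0.0549 and 0.0879.

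Between genotypes, Pygb/Pygm was lower in TG hearts after either surgery. After Sham the ratios were -1.23, -1.18, -1.25, -1.11 and -1.16 in TG hearts, all below those of the NTG hearts given above, with a difference of -0.17 and an exact p of 0.00794, the smallest that 5 against 5 can give, adjusted 0.0352. After TAC the difference was -0.36, with a permutation p of 0.00076 over 100000 resamples and an adjusted p of 0.0111, and this was the 1 pair called between the TAC groups. It held whichever TAC heart was left out and as a difference of medians. Pfkl/Pfkm was higher in TG than in NTG Sham hearts, with -2.65, -2.74, -2.71, -2.92 and -2.92 against -3.06, -3.12, -3.23, -3.13 and -3.04, a difference of 0.33 and an adjusted exact p of 0.0352, again without overlap. Both Sham calls ended whichever heart was left out, where 4 against 5 hearts cannot reach as small a p. Among the libraries with a name number of 100 or more, 5 TG Sham against 4 NTG Sham, the differences were 0.35 for Pfkl/Pfkm and -0.19 for Pygb/Pygm, each with an adjusted exact p of 0.116.

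**Figure D5:**
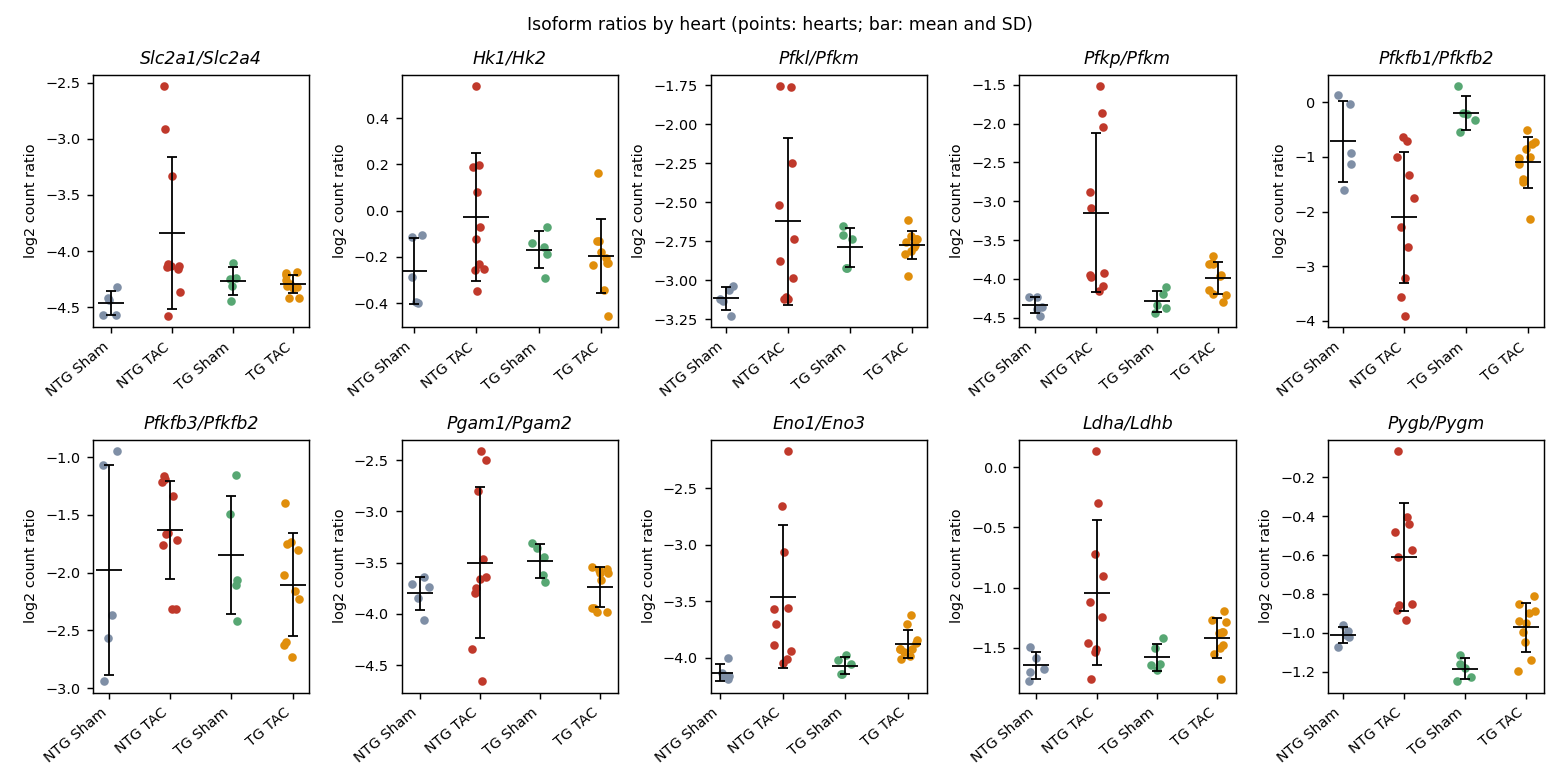
Log2 ratio of the counts of 10 isoform pairs, with 1 point per heart in 4 groups and bars for the mean and SD (each panel has its own axis, and Aldoc/Aldoa is left out because Aldoc is near 0). Pfkp/Pfkm and Pygb/Pygm do not overlap between NTG Sham and NTG TAC hearts, and Pygb/Pygm lies lowest in TG Sham hearts.

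The promoters of genes in the pairs called with TAC in NTG hearts are shown so that forms of the same step can be compared in sequence. They are the 250 bases before the listed transcription start from RefSeq on GRCm38.p6, 5′ to 3′ on the strand of the gene. CG dinucleotides are in capitals, and the 5 genes of these pairs that have 1 start in the table are shown. The windows of Eno3 and Pfkp lie inside the annotated genes, which span chr11:70653125-70662513 and chr13:6579874-6649060. For these genes the window is therefore not upstream of the outermost annotated end. Slc2a1 lies at chr4:119108495-119108744 on the plus strand, Pfkp at chr13:6648772-6649021 on the minus strand, Eno3 at chr11:70656926-70657175 on the plus strand, Pygb at chr2:150786546-150786795 on the plus strand and Pygm at chr19:6384158-6384407 on the plus strand.
Slc2a1: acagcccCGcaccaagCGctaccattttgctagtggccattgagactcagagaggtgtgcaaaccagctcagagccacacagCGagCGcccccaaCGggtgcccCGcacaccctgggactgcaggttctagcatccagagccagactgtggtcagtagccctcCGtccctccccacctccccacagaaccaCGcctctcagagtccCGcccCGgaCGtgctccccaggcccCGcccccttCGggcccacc
Pfkp: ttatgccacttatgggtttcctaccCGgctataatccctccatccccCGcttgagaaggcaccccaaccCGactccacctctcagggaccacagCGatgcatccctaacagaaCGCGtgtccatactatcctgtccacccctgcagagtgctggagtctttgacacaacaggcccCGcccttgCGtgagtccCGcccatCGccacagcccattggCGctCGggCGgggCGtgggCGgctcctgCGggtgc
Pygb: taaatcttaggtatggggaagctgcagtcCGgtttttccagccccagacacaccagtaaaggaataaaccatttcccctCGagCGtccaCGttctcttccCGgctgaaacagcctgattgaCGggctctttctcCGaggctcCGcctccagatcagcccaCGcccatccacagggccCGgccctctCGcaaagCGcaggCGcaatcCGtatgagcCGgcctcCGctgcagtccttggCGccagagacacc
Eno3: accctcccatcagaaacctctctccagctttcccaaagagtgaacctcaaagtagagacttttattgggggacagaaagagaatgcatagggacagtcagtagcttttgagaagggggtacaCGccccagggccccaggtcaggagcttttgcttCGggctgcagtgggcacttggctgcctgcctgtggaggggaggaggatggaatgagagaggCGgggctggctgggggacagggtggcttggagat
Pygm: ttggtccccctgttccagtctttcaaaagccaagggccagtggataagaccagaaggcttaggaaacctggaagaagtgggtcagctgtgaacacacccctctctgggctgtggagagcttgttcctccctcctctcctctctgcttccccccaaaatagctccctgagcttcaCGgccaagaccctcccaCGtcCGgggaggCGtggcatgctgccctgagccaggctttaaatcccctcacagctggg
In these windows Slc2a1, Pfkp and Pygb held 13, 16 and 17 CG dinucleotides, and the muscle forms Eno3 and Pygm held 3 and 4. The counts of Pfkp and Eno3 come from windows inside the genes. The other form whose share grew after TAC, Eno1, has 3 starts in the table and held 9 in the window counted, and Pfkm, with 4 starts, held 2. The promoter of Slc2a4 was not analysed here. The median over one promoter for each of 27025 genes was 6. The core of the hypoxia response element, ACGTG on either strand, was found in 10 of the 28 promoters matched, Slc2a1, Pygb and Pygm among them, and in 16.5% of all promoters. The GC box GGGCGG was found in 13 of 28, Slc2a1 and Pfkp among them, and in 33.0% of all, and TATAAA in 0 of 28 and 13.0% of all. A match of letters describes these windows only.

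Neighbours of the 29 in the pathway were read from lists in the same fit. Among the genes of glycolysis and glucose transport, Slc16a3, the lactate exporter MCT4, ran from 2.5 to 3.9 and from 3.84 to 25.2 CPM in NTG Sham and TAC hearts, a log2 fold change of 1.39 ± 0.37 (SE) with an adjusted p of 0.012 by edgeR. It was lower in TG than in NTG hearts after TAC with -1.08 ± 0.28, adjusted p = 0.0148.

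Lower after TAC in NTG hearts were Galm, which interconverts the anomers of glucose, Slc2a12, a further glucose transporter, Tbc1d4, which holds GLUT4 inside the cell, and Fbp2, the muscle fructose bisphosphatase. Galm had a log2 fold change of -0.40 ± 0.12 (SE) and an adjusted p of 0.0176 by edgeR. Slc2a12, Tbc1d4 and Fbp2 had log2 fold changes of -0.70, -0.40 and -0.98, with adjusted p-values of 0.0264, 0.0304 and 0.0397 by edgeR. Their calls held in 27, 24 and 21 of the 30 fits with 1 library left out. Of the glycogen genes outside the 29, Gyg, glycogenin, the primer of glycogen, and Pygl, the liver phosphorylase, were higher, with 0.23 ± 0.06 and 0.53 ± 0.14 and adjusted p-values of 0.00888 and 0.0117. Phkg1, the catalytic subunit of muscle phosphorylase kinase, was lower, with -1.05 ± 0.29 and an adjusted p of 0.0147. None of the 10 tested genes of the pentose phosphate and polyol branches and of the 6 of the hexosamine branch was called by edgeR in NTG hearts. Of these, 2 and 0 had an unadjusted p under 0.05, where 32.5% of all tested genes did. Between the TAC groups, Galm was higher in TG hearts, with 0.40 ± 0.10 and an adjusted p of 0.00945, and Ogt, which attaches the end product of the hexosamine branch to proteins, was lower, with -0.11 ± 0.04 and 0.0432, a call that held under 3 of 11 other settings. In fits on the groups of a comparison alone, Pygl in NTG hearts and Galm between the TAC groups kept their calls. Those of Slc16a3, Gyg, Phkg1, Ogt, Slc2a12, Tbc1d4 and Fbp2 and of Galm in NTG hearts ended.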

How the data were processed

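RNA was extracted with Trizol and read as strand-specific paired-end mRNA libraries, per the labels. Per the submitters' processing notes, Trim Galore 0.6.4, TopHat, Bowtie2 2.2.9, edgeR 3.17 and the mm10 build were used; the counting program and its strand setting are not given in the sources used here. The authors deposited raw counts per Entrez gene for each library. They also deposited CPM, which equal each count divided by its library total to within rounding.

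The raw counts were fitted in edgeR 4.0.16 (R 4.3.3; TMM factors, filterByExpr with a minimum count of 10, robust quasi-likelihood, 1 model of 4 groups over 30 libraries), with Benjamini-Hochberg adjustment over 13588 genes and a threshold of 0.05. The fit was also run on simulated counts that had 1 spread per gene in all groups. That run cannot check the fit under the wider spread of the NTG TAC hearts. Pairs were tested on log2 count ratios with 0.5 added to each count, by exact permutation or, for 10 against 10 hearts, 100000 resamples (scipy 1.17.1), two-sided, adjusted over 44 tests. Lengths were those of the principal transcript. Alternatives used DESeq2 1.42.0, limma 3.58.1 and sva 3.50.0. The genes, lists, pairs and named-gene rule were chosen with earlier results of these data known: a gene was given in full when called in a comparison or part of a called pair, and of each neighbouring list up to 4 called genes with the smallest p. No 2 libraries of a group agreed within sampling noise, with a chi-square per degree of freedom of at least 2.76 over 110 pairs. Some genes of the neighbouring lists are not reported here.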

Additional observations from a re-analysis of the deposited data

Results flagged for a closer look

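In 11 of 160 groups of values, 1 heart lay farther from the others than Dixon's 95% critical value allows, and chance alone gives about 1 in 20. NTG TAC replicate 2 was that heart for 5 genes, always as the highest, with 490.329 CPM for Hk2, 276.97 for Pfkl, 88.171 for Phka1, 87.994 for Slc2a1 and 746.183 for Ugp2. NTG TAC replicate 9 was highest for Pygb, with 1539.64 CPM. TG Sham replicate 5 was lowest for Gbe1 and Gys1, with 50.311 and 218.642 CPM. NTG Sham replicate 4 was highest for Pgk1, with 184.053 CPM, and TG TAC replicate 10 was lowest for Pgam1, with 48.793 CPM. The log2 ratio of Hk1 to Hk2 was highest in TG TAC replicate 2, at 0.162.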

How the results depend on the processing

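Of the 28 genes tested, 3 were called higher and 5 lower with TAC in NTG hearts. Fits on the NTG groups alone and with 1 surrogate variable gave 0 and 0. The name number as a term gave 8 and 1, and no filter on low counts gave 3 lower. Over all genes these 4 settings called 218, 316, 1723 and 2080, against 2390. Leaving out 1 library in turn gave 2 to 6 higher and 0 to 6 lower, with 0 lower without NTG Sham replicate 4 and 1 without NTG Sham replicate 3 or NTG TAC replicate 2 or 3, and 2 or 3 without 1 of NTG Sham hearts 1, 2 and 5 or NTG TAC hearts 5 and 8. Without 1 of NTG TAC hearts 1, 4, 6, 7 and 9, 5 or 6 were higher. Over all genes, leaving out these hearts in that order called 3200, 2741, 2773, 2975 and 2575, against 2390. Leaving out NTG TAC hearts 2, 3, 5 and 8 called 1766, 1762, 2005 and 1938. Leaving out NTG Sham replicates 1 to 5 called 1674, 1665, 1686, 1550 and 1851, so the counts of all genes moved as well. With TAC in TG hearts, 0 were called. DESeq2 gave 1 higher, limma voom 5, the TG groups alone 6 and 1 surrogate variable 4, the latter 2 with 2 lower each, and leaving out 1 library gave 0 to 1 higher. Over all genes the first 4 of these settings called 380, 1305, 954 and 794, against 194, and leaving out 1 library called 93 to 296. Lower in TG than NTG Sham hearts were 0, against 1 with limma voom, 2 in the Sham groups alone and 1 with 1 surrogate variable. Over all genes these 3 settings called 248, 247 and 183, against 99. Higher in TG than NTG TAC hearts were 0, against 1 with DESeq2, with limma voom and with limma on the deposited CPM, and 0 to 2 when 1 library was left out. Over all genes, in either direction, the first 3 of these settings called 1860, 621 and 1134, against 1553, and leaving out 1 library called 822 to 2384.

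Pairs called were 4, 3, 2 and 1 for TAC in NTG hearts, TAC in TG hearts, the genotypes after Sham and the genotypes after TAC. The difference of medians gave 0 in the first 3, and libraries with a name number of 100 or more gave 0 for TAC in NTG hearts and for the genotypes after Sham. Leaving out 1 library gave 3 to 7, 2 to 5, 0 to 0 and 1 to 4, with 7 and 5 without replicate 1 of the TAC group and 2 to 4 without 1 of NTG TAC hearts 1, 3, 4, 6, 7, 8 and 9 or TG TAC heart 4. The cause of these changes was not tested, beyond the smaller groups of the last. With the replicate number as a block, 3 genes were lower in NTG TAC hearts and 1821 of all genes were called in place of 2390. Over 35 pairs of same-numbered hearts, the correlation of their deviations had a median of 0.047 and ran from -0.152 to 0.548. As a set these hearts did not deviate together, which cannot decide whether single pairs did. No gene or pair called in the main tests changed its sign. For results that were not called, the sign was not compared.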
